A study of Mus musculus with 12 samples.

Results

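The genes of the semaphorin family and of its receptors, the plexins and neuropilins, were followed in glial cells sorted from the developing mouse cerebellum. Members were taken by symbol, as every entry named Sema followed by a digit and a letter from a to g, every entry named Plxn followed by a letter from a to d and a digit, and Nrp1 and Nrp2. Of the 24421 entries in the table, 31 were members, made up of 20 semaphorins of 5 classes, 9 plexins and 2 neuropilins. All 31 passed the filter on low values, which asked that 3 or more libraries reach a normalized count of 10. RNA came from GFP-positive cerebellar cells of mice of the genotype Aldh1l1-GFP, kept on the C57/BL6J background with both sexes used, at postnatal days P1, P7, P14 and P28. There were 3 libraries per time point and 12 in all, and all of them carry the same transgene, in which the Aldh1l1 promoter drives GFP. The labels number the 3 libraries of each age as replicates without saying whether they came from separate animals, so p-values measure the spread between libraries, which may be technical.

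Semaphorins are secreted or membrane-bound guidance cues whose extracellular sema domain binds plexins. Secreted class 3 semaphorins mostly need a neuropilin as the binding partner of a plexin A, whereas class 4 to 7 semaphorins, which are anchored in the membrane, bind plexins directly. Activated plexins act on small GTPases and so on the actin cytoskeleton and on adhesion. In the cerebellum the family is best known from granule neurons, whose inward migration depends on Sema6a and its receptor Plxna2 and whose precursors need Plxnb2.

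Between 6399499 and 14733985 reads were counted on genes per library. Markers of cells other than astrocytes were detected at every age, and their summed levels differed between ages. The summed normalized count of 9 astrocyte markers was between 52069 and 65957 in P1 libraries, 26497 and 48979 in P7 libraries, 142258 and 178841 in P14 libraries and 335136 and 390459 in P28 libraries. The summed count of 10 oligodendrocyte markers was between 1570 and 2646 in P1 libraries, 22398 and 34556 in P7 libraries, 349451 and 397877 in P14 libraries and 105832 and 146521 in P28 libraries. Over all 12 libraries, summed markers ranged from 3014 to 26060.1 for granule neurons and their precursors, from 227 to 779 for Purkinje cells, from 975 to 4129 for microglia and from 3884 to 24300.0 for meningeal fibroblasts. The 6 choroid plexus markers summed to 338 to 791 in P1 libraries, 48229 to 128109.8 in P7 libraries and 17802 to 182811 in P28 libraries, and to 109483, 63652 and 912 in P14 replicates 1, 2 and 3, so that P14 replicate 3 stood apart from the other P14 libraries. Of the markers on 11 lists, Gabra6 at P1 and Atoh1 at P14 and P28, both of granule neurons or their precursors, were at 0 in all 3 libraries of an age. In bulk samples of this kind, fewer cells of a type and less RNA of a gene per cell cannot be told apart. P1 replicate 2 and P7 replicate 2 stood apart in vascular genes. Their summed endothelial markers were 6909 and 9144, against 1828 to 2717 in the other libraries of those ages. Their summed meningeal fibroblast markers were also the highest of their ages. These were 24300.0 against 5599 and 14134 at P1, and 18129 against 6691 and 10212 at P7. P7 replicate 2 also had the lowest astrocyte sum, 26497 against 45828 and 48979 in the other P7 libraries, and the fewest reads, 6399499.

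The sequences just upstream of 3 members that changed from P7 to P14 are shown first, namely the ligand Sema6d, which rose, and the receptors Plxnc1 and Plxna3, which fell. Other ligands and receptors moved in either direction in this step. Each is the 250 bases before a RefSeq start site on GRCm38.p6, written 5′ to 3′ on the strand of the gene, and none of these 3 windows overlapped an exon of GENCODE M21. Sema6d lies at chr2:124089969-124667770 on the plus strand, and its window is chr2:124089719-124089968. Plxnc1 lies at chr10:94790866-94944835 on the minus strand, and its window is chr10:94944846-94945095. Plxna3 lies at chrX:74329066-74344689 on the plus strand, and its window is chrX:74328816-74329065. Capitals mark GGGCGG or its reverse complement CCGCCC, the GC box.
Sema6d: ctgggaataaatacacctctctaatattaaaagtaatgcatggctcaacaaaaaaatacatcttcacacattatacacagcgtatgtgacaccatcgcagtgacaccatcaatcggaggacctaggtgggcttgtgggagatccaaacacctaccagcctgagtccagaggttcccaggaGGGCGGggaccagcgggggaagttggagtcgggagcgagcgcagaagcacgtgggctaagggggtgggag
Plxnc1: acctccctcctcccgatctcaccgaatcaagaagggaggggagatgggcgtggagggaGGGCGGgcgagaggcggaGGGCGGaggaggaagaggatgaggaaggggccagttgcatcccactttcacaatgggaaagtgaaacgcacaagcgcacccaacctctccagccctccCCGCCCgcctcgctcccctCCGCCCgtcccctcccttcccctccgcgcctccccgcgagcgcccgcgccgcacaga
Plxna3: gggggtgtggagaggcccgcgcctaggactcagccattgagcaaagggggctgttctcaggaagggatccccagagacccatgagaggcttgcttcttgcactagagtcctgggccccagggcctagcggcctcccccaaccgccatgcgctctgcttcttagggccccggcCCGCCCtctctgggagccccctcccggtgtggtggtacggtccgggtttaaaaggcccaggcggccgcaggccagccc
The GC content of these windows was 52.4% for Sema6d, 68.8% for Plxnc1 and 68% for Plxna3, and they held 1, 4 and 1 GC boxes. RefSeq windows matched 26 of the 31 members by symbol, with 37 windows in all, while Plxna1, Plxna4, Sema3b, Sema3f and Sema6a were not matched. A GC box on either strand stood in 27 of the 37 member windows (73%) and in 32.7% of all 32851 windows of the same length. TATAAA stood in 0 of the 37 and in 12.4% of all windows, CCAAT in 7 and in 33.8%, and ACAAAG in 5 and in 16.5%, each on either strand and with overlaps between motifs allowed. A second Sema6d start in RefSeq lies 563612 bases downstream, and the counts per gene do not tell the starts apart.

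Changes between ages were tested with limma on log2(normalized count + 1) over all 15464 genes that passed the filter, and a gene was called at a Benjamini-Hochberg adjusted p under 0.05. Fold changes below are log2 differences between later and earlier means ± SE with 3 libraries per age. From P1 to P7, Plxnb3, Sema4d and Sema3d rose and Plxna4, Sema5b, Sema3a and Plxnb1 fell. These were 3 of 31 members higher (9.68%), against 3.47% of all genes, and 4 lower (12.9%), against 4.24%. The median member changed by 0.18, against 0.037 over all genes. Only 2 members were called lower when P1 replicate 1 or P7 replicate 2 was left out, and 2 also when P1 replicate 2 and P7 replicate 2 were left out together. In the same step 3 of 6 choroid plexus markers were called higher, and their part in these counts was not tested.

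From P7 to P14, Sema4a, Sema4d, Plxnb3, Plxnb1 and Sema6d rose, and Sema6c, Plxnc1, Plxna3, Sema6a and Plxnb2 fell. The 5 members called higher (16.1%) stood against 10.8% of all genes and the 5 called lower (16.1%) against 10.0%. The median member changed by -0.25, against -0.086 over all genes. From P14 to P28, Sema6d, Plxnb1 and Plxnb2 rose, and Sema3f, Sema4f, Sema4c, Sema5a, Nrp2, Sema6a and Nrp1 fell. The background was 5.68% of all genes for the 3 members called higher (9.68%) and 8.76% for the 7 called lower (22.6%), with a median of -0.33 against -0.12. With scaling by library totals this step had 1 member higher and 9 lower. Without P14 replicate 3, the P14 library with the low choroid plexus markers, it had 1 higher, and without P14 replicate 2 it had 4 lower.

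Over the whole span from P1 to P28, 6 members (19.4%) were called higher, against 14.6% of all genes, and 13 (41.9%) were called lower, against 20.0%. The rising members were Plxnb3, Sema4d, Sema7a, Sema6d, Sema4a and Sema3d. The median member changed by -0.76, against -0.24 over all genes. By kind, 5 of 20 semaphorins rose and 7 fell, 1 of 9 plexins rose and 4 fell, and both neuropilins fell. The 3 steps and the whole span share libraries and are not independent of each other. In all, 23 members were called in at least 1 of the 4 comparisons, and 8 in none, namely Plxna2, Plxnd1, Sema3b, Sema3c, Sema3e, Sema3g, Sema4b and Sema6b.

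**Figure D1:**
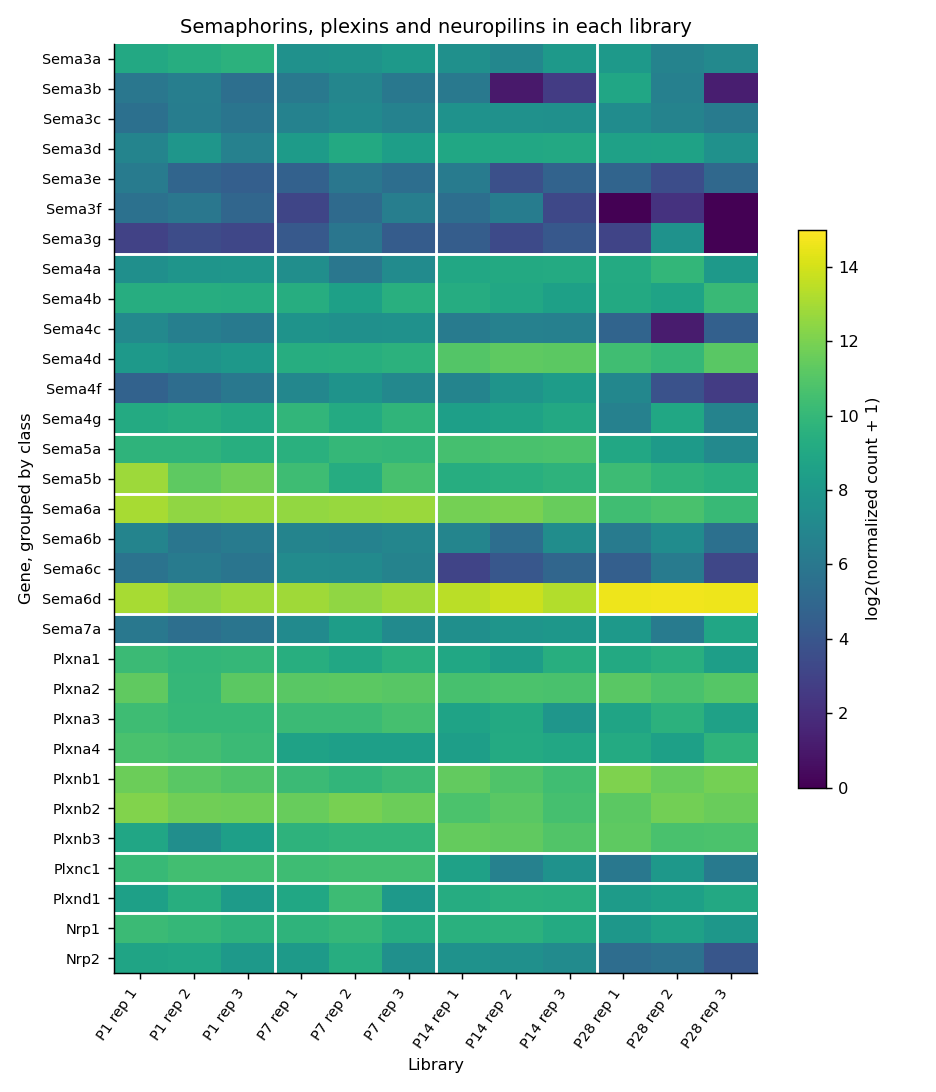
Heat map of the 31 members (rows, grouped by class) in the 12 libraries (columns, ordered by age), where the colour gives log2(normalized count + 1). Sema6d is the brightest row at P28, and Sema6a is bright at P1 and P7 and fades. Sema3b and Sema3g are dark with single libraries that stand out, and Sema3f is dark and lowest at P28.

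**Figure D2:**
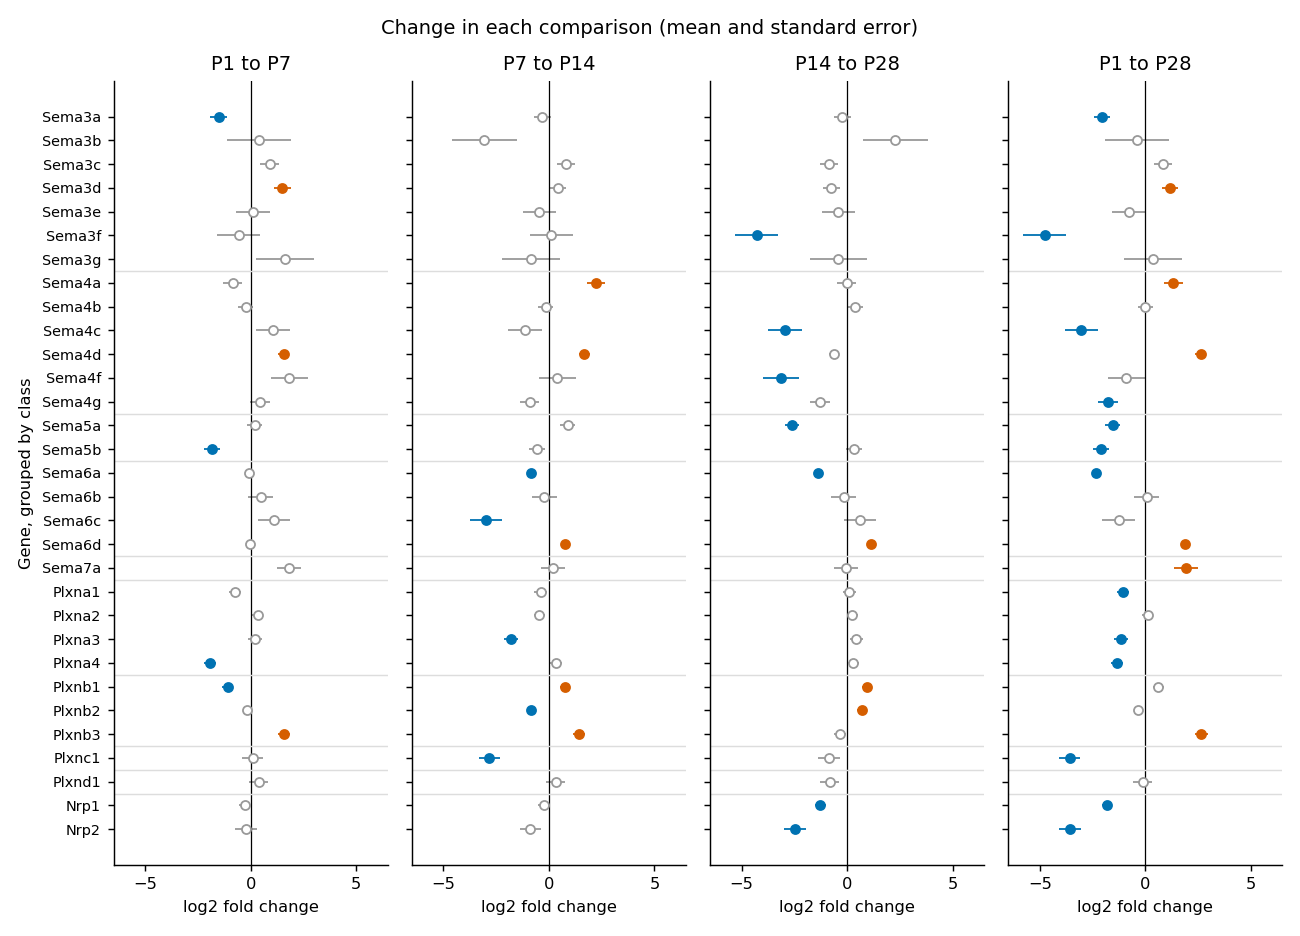
Log2 fold change of each member in the 4 comparisons, later minus earlier age, with bars of 1 standard error from limma. Filled orange points were called higher, filled blue points were called lower and open grey points were not called, with 7, 10, 10 and 19 members called from left to right.

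Class 6, transmembrane ligands of plexin A receptors, held the most abundant semaphorins, and its members moved in opposite directions. Sema6d, a ligand of Plxna1, had normalized counts of 8289, 5797 and 7129 at P1, 7374, 5832 and 7517 at P7, 11331, 14134 and 9858 at P14, and 24944, 26368 and 25122 at P28. The P1 and P7 libraries overlapped, every P14 library was above them, and every P28 library was above those of P14. Its log2 fold change was 0.76 ± 0.17 between P7 and P14 (adjusted p = 0.00516) and 1.13 ± 0.17 between P14 and P28 (adjusted p = 0.00115), which made 1.86 ± 0.17 between P1 and P28 (adjusted p = 1.83e-06).

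Sema6a, the ligand of Plxna2 and Plxna4, had normalized counts of 8414, 5819 and 6453 at P1, 6176, 6459 and 6826 at P7, 3786, 4107 and 2979 at P14, and 1352, 1654 and 1121 at P28. The pattern was the mirror of that of Sema6d, with overlap between P1 and P7 and none afterwards. The fall was -0.85 ± 0.18 between P7 and P14 (adjusted p = 0.00406), -1.40 ± 0.18 between P14 and P28 (adjusted p = 5.29e-04) and -2.33 ± 0.18 between P1 and P28 (adjusted p = 4.37e-07). All calls of Sema6d and Sema6a held in every alternative fit that tested them.

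Levels were also taken per kb of annotated exon, which makes genes only roughly comparable. On this scale the ratio of Sema6d to Sema6a was 0.855 ± 0.0549 (SD, n = 3), 0.886 ± 0.124, 2.70 ± 0.192 and 15.7 ± 2.71 at P1, P7, P14 and P28. Single libraries gave ratios of 13.3 to 18.6 at P28 and of 0.751 to 0.993 at P1 and P7. Both genes therefore stood at like levels for the first week, and Sema6d was the higher in each of the 6 later libraries. Its share of the summed level per kb of the 20 semaphorins went from 26.7% ± 2.24 at P1 to 29.5% ± 2.26, 43.8% ± 3.83 and 70.3% ± 1.50 at P28. The share of Sema6a went from 31.2% ± 1.27 to 33.5% ± 2.27, 16.3% ± 1.62 and 4.56% ± 0.829. In the steps where Sema6d rose, most astrocyte markers rose too. Between P7 and P14, 8 of 9 were called higher, and between P14 and P28, 7 of 9 were. Between P1 and P7, 5 of 9 were called lower and 1 higher, while Sema6d was not called (-0.028 ± 0.17, adjusted p = 0.971). Oligodendrocyte markers were called higher in 10 of 10 cases between P7 and P14, and lower in 8 of 10 between P14 and P28. The part of astrocyte or oligodendrocyte RNA in these results was not tested.

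**Figure D3:**
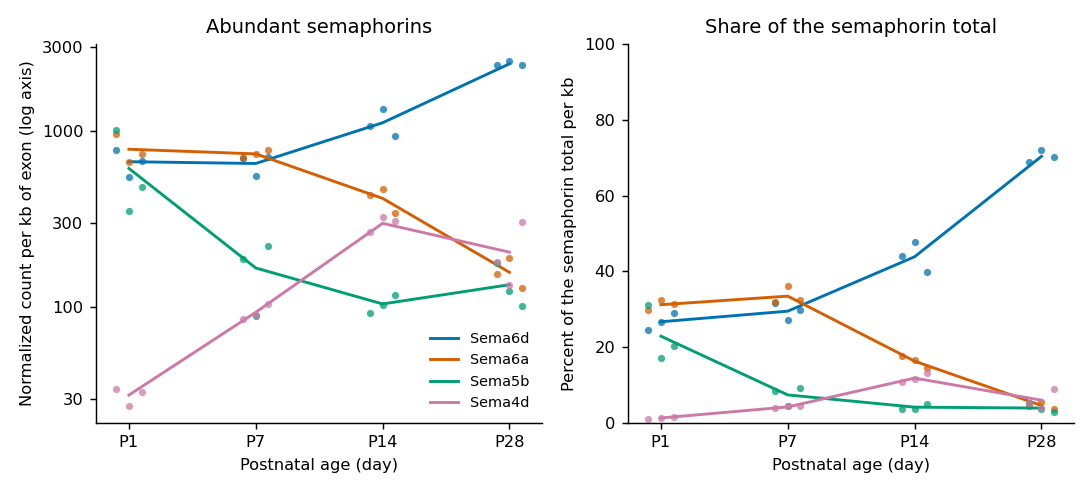
Left, normalized count per kb of exon (log axis) of Sema6d, Sema6a, Sema5b and Sema4d by age. Right, the percent of the summed level per kb of the 20 semaphorins that each of them made up. Points are libraries and lines join the means of 3. Sema6d and Sema6a lie together at P1 and P7 and are 15.7-fold apart at P28.

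Sema6c, another class 6 ligand, was far less abundant, at 51.1, 75.0 and 55.3 at P1, 150.5, 141 and 102 at P7, 7.41, 15.9 and 30.4 at P14, and 21.9, 74.3 and 8.11 at P28. Its 3 P7 libraries were the highest, its P14 libraries were below those of P1, and its P28 libraries overlapped with both P1 and P14. From P7 to P14 it fell by 2.99 ± 0.76 on the log2 scale (adjusted p = 0.0118). The call was lost without P7 replicate 1 (adjusted p = 0.0525), without P14 replicate 1 (0.0523), and without P1 replicate 2 and P7 replicate 2 together (0.0633). Sema6b, the fourth member of the class, ranged from 41.3 to 165 over the 12 libraries and was not called.

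Class 5 semaphorins carry thrombospondin repeats beside the sema domain. Sema5b, which acts in retinal neurons through Plxna1 and Plxna3, was the third most abundant semaphorin per kb over the 12 libraries and was highest at P1. Its normalized counts were 7112, 2479 and 3384 at P1, 1322, 626 and 1575 at P7, 651, 719 and 829 at P14, and 1247, 872 and 710.0 at P28. Every P1 library was above every later one, and P1 replicate 1 was more than 2 times as high as the other P1 libraries. The gene fell by 1.84 ± 0.37 between P1 and P7 (adjusted p = 0.00708) and fell by 2.09 ± 0.37 between P1 and P28 (adjusted p = 6.82e-04). Its share of the semaphorin total per kb was 22.9% ± 7.39 at P1 and 3.88% ± 1.13 at P28.

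Sema5a, a ligand of Plxnb3, was highest at another age than its paralog. It had 851, 852 and 682 normalized counts at P1, 731, 1006 and 976 at P7, 1554, 1659 and 1748 at P14, and 513, 288 and 133 at P28. The P14 libraries were above all others and the P28 libraries below all others, although the P28 libraries differed among themselves. The fall from P14 to P28 was -2.61 ± 0.35 (adjusted p = 5.54e-04) and that from P1 to P28 was -1.55 ± 0.35 (adjusted p = 0.00371). Per kb, Sema5a stood at 0.0840 ± 0.0429 of Sema5b at P1 and at 0.859 ± 0.0537 at P14, and at 0.117 ± 0.0431 again at P28. The 5 oligodendrocyte precursor markers had a summed count of 6457 to 9642 at P1 and 3672 to 4221 at P7. This sum was 4958 to 5873 at P14 and 2096 to 2585 at P28, with 3 of 5 called lower in the step from P14. Of 10 oligodendrocyte markers, 10 were called higher from P7 to P14 and 8 lower from P14 to P28. The part of either cell type in the fall of Sema5a was not tested.

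Class 4 semaphorins are transmembrane ligands, mostly of plexin B receptors. From P1 to P28, 2 of the 6 members rose and 2 fell, against 14.6% and 20.0% of all genes. Sema4d, the main ligand of Plxnb1, had normalized counts of 262, 210.1 and 251 at P1, 656, 684 and 798 at P7, 2028, 2478 and 2351 at P14, and 1371, 1019 and 2311 at P28. The libraries of P1, P7 and P14 formed 3 separate levels, and those of P28 overlapped with P14. It rose by 1.56 ± 0.25 between P1 and P7 (adjusted p = 0.00162), by 1.68 ± 0.25 between P7 and P14 (adjusted p = 2.65e-04) and by 2.62 ± 0.25 between P1 and P28 (adjusted p = 2.90e-06), and these calls held in every alternative fit. Its share of the semaphorin total per kb was 1.26% ± 0.179 at P1 and 11.8% ± 1.17 at P14.

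Sema4a, which is also known from lymphocytes, had 175, 226 and 238 normalized counts at P1, 169.6, 60.2 and 152 at P7, 503, 552 and 576 at P14, and 579, 961 and 272 at P28. All P14 and P28 libraries were above all P1 and P7 libraries, with P28 replicate 3 the lowest of the later ones. The rise was 2.22 ± 0.44 between P7 and P14 (adjusted p = 0.00246). From P1 to P28 it was 1.33 ± 0.44 (adjusted p = 0.0315), a call lost in 5 of the 12 fits without 1 library, those without P1 replicate 1, 2 or 3 (adjusted p = 0.104, 0.0603 and 0.058) and those without P28 replicate 1 or 2 (0.0663 and 0.122). It was also lost with library totals (0.90, adjusted p = 0.119) and in a fit of these ages alone (0.0654). Beside the rises of Sema4d, 9 of 10 oligodendrocyte markers were called higher from P1 to P7 and 10 of 10 from P7 to P14. From P14 to P28, 8 of 10 were called lower. Sema4a was not called from P1 to P7 (-0.86 ± 0.44, adjusted p = 0.327), with its P7 libraries below those of P1. Of 9 astrocyte markers, 5 were called lower and 1 higher from P1 to P7, and 8 were called higher from P7 to P14. The part of oligodendrocyte or astrocyte RNA in these results was not tested.

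Sema4c, Sema4f and Sema4g, of which Sema4c and Sema4g are ligands of Plxnb2, were at their lowest or near it at P28. Sema4c had 132, 88.6 and 68.2 normalized counts at P1, 208, 187 and 188 at P7, 75.2, 96.3 and 93.4 at P14, and 27.8, 1.18 and 23.0 at P28. All P28 libraries were below the rest, and P28 replicate 2, with 1 read, was far below the other P28 libraries. Its fall was -2.95 ± 0.79 between P14 and P28 (adjusted p = 0.0238) and -3.03 ± 0.79 between P1 and P28 (adjusted p = 0.00877). Without P28 replicate 2 these values were -1.76 and -1.84 (adjusted p = 0.0178 and 0.00611). The call from P14 to P28 was lost without P14 replicate 1, 2 or 3 (adjusted p = 0.0563, 0.0662 and 0.0727), and both calls were lost in fits of the compared ages alone (0.163 from P14 and 0.0739 from P1).

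Sema4f had 25.8, 40.7 and 64.4 normalized counts at P1, 120.2, 209 and 126 at P7, 110.1, 214 and 313 at P14, and 124, 13.0 and 5.41 at P28. P28 replicate 1 lay within the range of P14, so the groups overlapped. The fall from P14 to P28 was -3.13 ± 0.87 (adjusted p = 0.0281), a call lost without P14 replicate 2 or 3 (adjusted p = 0.0776 and 0.108), without P28 replicate 2 or 3 (0.0611 and 0.0721), without P1 replicate 2 and P7 replicate 2 together (0.0502), with edgeR (0.109), and in a fit of these ages alone (0.12). Sema4g had 572, 640.2 and 533 normalized counts at P1, 921, 581 and 907 at P7, 346, 396 and 526 at P14, and 96.5, 485 and 104 at P28. Its P28 libraries were below all P1 libraries, with replicate 2 close to them. From P1 to P28 it fell by 1.77 ± 0.47 (adjusted p = 0.00971), and fell by 1.31 with edgeR (adjusted p = 0.0522), and a fit of these ages alone gave an adjusted p of 0.0567. Sema4b ranged from 364 to 1168 and was not called.

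Class 3 semaphorins, the secreted ligands of neuropilin and plexin complexes, were low throughout, with a summed level per kb of 101 ± 15.8 at P1 and 122 ± 71.0 at P28, against 1486 ± 273 and 2599 ± 121 for class 6. Sema3a, the classical repellent acting through Nrp1, had 528, 637 and 799.6 normalized counts at P1, 192, 211 and 281 at P7, 182, 121 and 270.4 at P14, and 270.4, 105 and 133 at P28. Every P1 library was above every later one, and the later ages overlapped. The gene fell by 1.52 ± 0.39 between P1 and P7 (adjusted p = 0.0277) and fell by 2.05 ± 0.39 between P1 and P28 (adjusted p = 0.00109). The call from P1 to P7 was lost in each of the 6 fits without 1 library of P1 or P7 (adjusted p = 0.0548 to 0.107), and was 0.238 without P1 replicate 2 and P7 replicate 2 together.

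Sema3d had 109.5, 232 and 95.4 normalized counts at P1, 299, 556 and 335 at P7, 497, 509.9 and 530.0 at P14, and 376, 397 and 189 at P28. All P7 and P14 libraries were above those of P1, whereas P28 replicate 3 lay within the P1 range. It rose by 1.50 ± 0.39 between P1 and P7 (adjusted p = 0.0275) and by 1.17 ± 0.39 between P1 and P28 (adjusted p = 0.0292). The first call was lost without P1 replicate 1 or 3 (adjusted p = 0.117 and 0.101), without P7 replicate 2 or 3 (0.152 and 0.0682), and without P1 replicate 2 and P7 replicate 2 together (0.0567). The call over the whole span was lost without P1 replicate 1 or 3 (0.102 and 0.118), without P28 replicate 1 or 2 (0.0767 and 0.0834), with library totals (0.142), and in a fit of these ages alone (0.121). Per kb, Sema3d stood at 0.372 ± 0.201 of Sema3a at P1 and at 2.90 ± 1.21, 4.79 ± 1.86 and 3.55 ± 2.22 of it at P7, P14 and P28.

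Sema3f, the ligand of Nrp2, had 47.4, 60.0 and 29.5 normalized counts at P1, 7.96, 35.3 and 82.9 at P7, 42.4, 79.3 and 8.69 at P14, and 0, 3.54 and 0 at P28. All P28 libraries were below all others, and a library without a read could hold up to 3 reads, or 4.38 and 4.06 normalized counts in P28 replicates 1 and 3. Counted reads fell from 123 at P14 to 3 at P28, a 33.2-fold difference after scaling with a 95% exact counting interval of 11.1 to 163, and from 200 at P1, 34.9-fold with an interval of 11.8 to 170. The limma fold change was -4.29 ± 1.02 between P14 and P28 (adjusted p = 0.0136) and -4.76 ± 1.02 between P1 and P28 (adjusted p = 0.00252). For the step from P14 it was -6.55 with a pseudocount of 0.1 and -2.0 with a pseudocount of 10, and the call was lost without P14 replicate 2 (adjusted p = 0.056) and in a fit of these ages alone (0.0665).

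The other class 3 genes were not called. Sema3c ranged from 44.9 to 203 normalized counts, with all P14 libraries above all P1 libraries, and Sema3e, a ligand of Plxnd1, ranged from 10.6 to 75.2. Sema3b ranged from 1.06 to 463 and Sema3g from 0 to 196, and both differed widely between libraries of an age. Sema3b was 65.7, 1.06 and 5.43 at P14 and 463, 90.8 and 1.35 at P28, and Sema3g was 7.31, 196 and 0 at P28. Class 7 has a single member, Sema7a, which is held in the membrane by a lipid anchor and binds Plxnc1 and integrins. It had 63.4, 44.3 and 56.0 normalized counts at P1, 143, 329.8 and 144 at P7, 175, 229 and 247 at P14, and 262, 75.5 and 461 at P28. All later libraries were above all P1 libraries, but those of P28 were spread beyond the range of P7 and P14 on both sides. The rise from P1 to P28 was 1.93 ± 0.57 (adjusted p = 0.0165), a call lost without P1 replicate 2 (adjusted p = 0.052), without P28 replicate 3 (0.0621), without P1 replicate 2 and P7 replicate 2 together (0.0557), and in a fit of these ages alone (0.0802).

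Among the receptors, plexin A genes fell or were not called, while plexin B genes moved in different directions. Plxna2, the receptor of Sema6a, was the most abundant plexin A per kb over the 12 libraries and was not called. It had 2539.6, 1021 and 2413 normalized counts at P1, 2273, 2403 and 2238 at P7, 1602, 1740.2 and 1669 at P14, and 2269.5, 1667 and 2088 at P28. Its P1 replicate 2 was the lowest of the 12 libraries, the P7 libraries were all above those of P14, and other ages overlapped.

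Plxna4, the receptor of Sema6a and, with Nrp1, of Sema3a, had 1675, 1473 and 1178 normalized counts at P1, 393, 353 and 358 at P7, 336, 574 and 516 at P14, and 564, 373 and 849 at P28. Every P1 library was above every later library. It fell by 1.95 ± 0.29 between P1 and P7 (adjusted p = 9.06e-04) and fell by 1.34 ± 0.29 between P1 and P28 (adjusted p = 0.00269), and both calls held in every alternative fit. Per kb, Plxna2 was 1.17 ± 0.561 times Plxna4 at P1, 5.16 ± 0.415 times at P7 and 3.00 ± 0.868 times at P28. Beside the falls of Plxna4, Sema5b and Sema3a from P1 to P7, 5 of 9 astrocyte markers were called lower. The summed oligodendrocyte precursor markers were 6457 to 9642 at P1 and 3672 to 4221 at P7, with 2 of 5 called lower. From P1 to P28, over which these genes were also called lower, 8 of 9 astrocyte markers were called higher. In that span 4 of 5 precursor markers were called lower. The part of either cell type in these falls was not tested.

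Plxna3, a receptor of Sema3f with Nrp2, had 1323, 1037 and 1064 normalized counts at P1, 1205, 1215 and 1529 at P7, 409, 557 and 233 at P14, and 437, 791 and 381 at P28. All P14 and P28 libraries were below all P1 and P7 libraries. The fall was -1.80 ± 0.32 between P7 and P14 (adjusted p = 9.59e-04) and -1.15 ± 0.32 between P1 and P28 (adjusted p = 0.0113), the latter with an adjusted p of 0.051 without P1 replicate 1. Plxna1, a receptor of Sema6d, had 1214, 984 and 996 normalized counts at P1, 671, 509 and 739 at P7, 494, 326 and 675 at P14, and 547, 715 and 345 at P28. The P1 libraries were above all others, which overlapped among themselves. From P1 to P28 it fell by 1.05 ± 0.30 (adjusted p = 0.015), a call lost without P1 replicate 1 (adjusted p = 0.0628) and without P28 replicate 3 (0.0544).

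Plexin B receptors bind class 4 semaphorins and signal to RhoA through the exchange factors Arhgef11 and Arhgef12. Their summed level per kb was 797 ± 174, 688 ± 59.2, 822 ± 157 and 1078 ± 64.3 at P1, P7, P14 and P28. Plxnb3, a receptor of Sema5a, had 461, 169 and 348 normalized counts at P1, 814, 951 and 948 at P7, 2781, 2560.0 and 1959 at P14, and 2500.4, 1647 and 1694 at P28. The libraries of P1, P7 and P14 did not overlap, and those of P28 overlapped with P14. The rise was 1.58 ± 0.30 between P1 and P7 (adjusted p = 0.00469), 1.42 ± 0.30 between P7 and P14 (adjusted p = 0.00378) and 2.66 ± 0.30 between P1 and P28 (adjusted p = 1.33e-05), and these calls held in every alternative fit. Its share of the summed level per kb of the 9 plexins was 3.30% ± 1.22, 10.4% ± 0.511, 31.6% ± 1.56 and 20.8% ± 4.41 at P1, P7, P14 and P28. As for Sema4d, the oligodendrocyte markers moved with it up to P14, and their part was not tested.

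**Figure D4:**
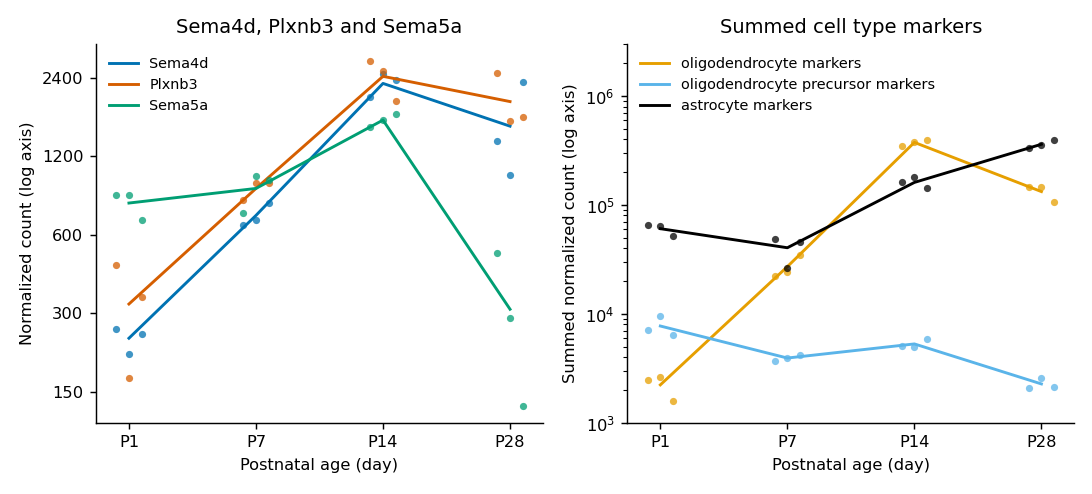
Left, normalized counts (log axis) of Sema4d, Plxnb3 and Sema5a by age. Right, summed normalized counts (log axis) of 10 oligodendrocyte, 5 oligodendrocyte precursor and 9 astrocyte markers. Points are libraries and lines join means of 3. Sema4d, Plxnb3 and the oligodendrocyte markers all rise to P14, and Sema5a drops from 1654 at P14 to 311 at P28.

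Plxnb1, the receptor of Sema4d, had 3163, 2264 and 1897 normalized counts at P1, 1209, 932 and 1219 at P7, 2654, 1871 and 1362 at P14, and 4386, 2981 and 3762 at P28. Its P7 libraries were the lowest and its P28 libraries lay above those of P7 and P14. It fell by 1.10 ± 0.25 between P1 and P7 (adjusted p = 0.0138) and then rose by 0.77 ± 0.25 between P7 and P14 (adjusted p = 0.0416) and by 0.95 ± 0.25 between P14 and P28 (adjusted p = 0.0213). Each of the 3 calls was lost in some fits without 1 library, while its direction held. The fall was lost without P1 replicate 1 (adjusted p = 0.0818), without P7 replicate 2 (0.067), and without P1 replicate 2 and P7 replicate 2 together (0.138). The first rise was lost without P1 replicate 2 (0.0505), P7 replicate 1, 2 or 3 (0.0754, 0.146 and 0.0738), P14 replicate 1 or 2 (0.188 and 0.0993), and without P1 replicate 2 and P7 replicate 2 together (0.166), and it was 0.51 with library totals (0.159) and was lost without the filter on low values (0.0546). The later rise was lost without P14 replicate 2 or 3 (0.0585 and 0.098), without P28 replicate 1 (0.0569) and with library totals (0.0639).

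Plxnb2, the receptor of Sema4c and Sema4g, had the highest mean per kb of the plexins at P1, P7 and P28. At P28 this mean, 392 ± 80.7, was close to that of Plxnb1, 387 ± 73.4. Plxnb2 had 4608, 3469 and 3330.3 normalized counts at P1, 2911, 3883 and 3218 at P7, 1757, 2332 and 1533 at P14, and 2392, 3639 and 3040.0 at P28. The P14 libraries were below all others, with a narrow gap between 2332 at P14 and 2392 at P28. It fell by 0.84 ± 0.20 between P7 and P14 (adjusted p = 0.00868), which held in every alternative fit, and rose by 0.69 ± 0.20 between P14 and P28 (adjusted p = 0.0369). This rise was lost without P7 replicate 3 (adjusted p = 0.0534), P14 replicate 1 or 3 (0.104 and 0.143) or P28 replicate 2 or 3 (0.1 and 0.0667), and was 0.45 with library totals (0.136). It was lost as well without the filter on low values (0.0511) and in a fit of these ages alone (0.0925). Per kb, Plxnb3 stood at 0.10 ± 0.0369 of Plxnb2 at P1 and at 1.57 ± 0.291 of it at P14.

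**Figure D5:**
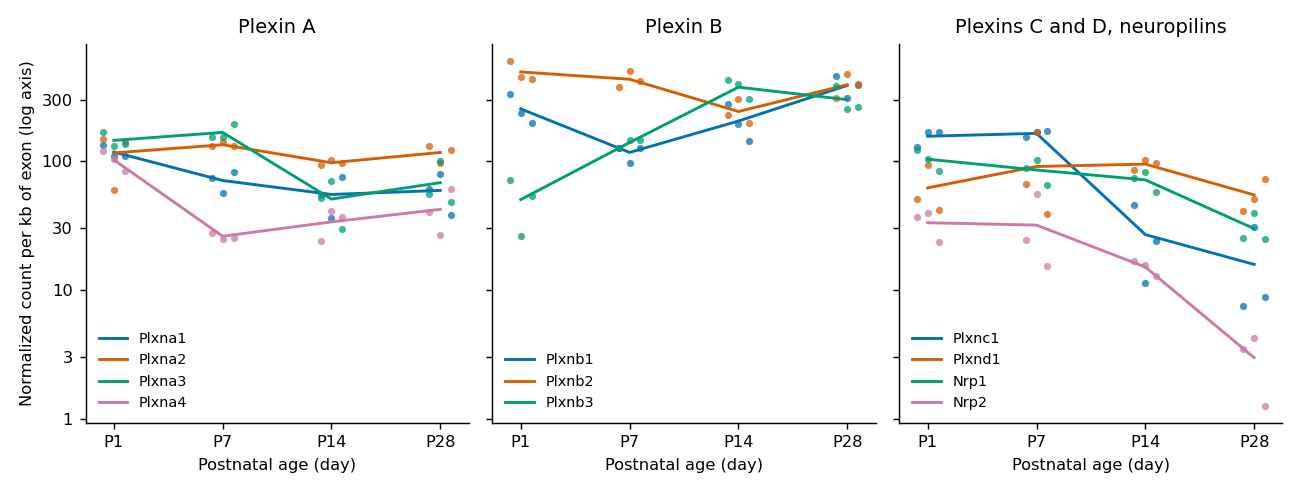
Normalized count per kb of exon (log axis) of the plexin A, plexin B, plexin C and plexin D genes and of the neuropilins by age. Points are libraries and lines join the means of 3. Plxnb3 rises to the level of Plxnb1 and Plxnb2, Plxnc1 drops between P7 and P14, and Nrp2 drops between P14 and P28.

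Plxnc1, the receptor of Sema7a, had 1084, 1407 and 1417 normalized counts at P1, 1287, 1403 and 1424 at P7, 379, 95.2 and 199 at P14, and 62.8, 259 and 73.0 at P28. It was level through the first week, and all later libraries were below all earlier ones. The fall was -2.82 ± 0.50 between P7 and P14 (adjusted p = 0.00102) and -3.59 ± 0.50 between P1 and P28 (adjusted p = 8.07e-05), and both calls held in every alternative fit. Its share of the plexin total per kb was 12.3% ± 0.668 at P7 and 2.27% ± 1.31 at P14. In the same step, in which Plxna3 and Sema6c also fell, 5 of 5 GABAergic interneuron markers were called lower, with summed counts of 2451 to 5335 at P7 and 305 to 439.8 at P14. These markers summed to 310.1 to 1505 at P1, where Plxnc1 was as high as at P7, and their part in the falls was not tested. Plxnd1, a plexin of blood vessels, ranged from 281 to 1222 normalized counts and was not called, and its highest value was in P7 replicate 2.

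Both neuropilins, which are also co-receptors for vascular endothelial growth factors, were lowest at P28. Nrp1 had 1192, 1022 and 825 normalized counts at P1, 858, 1006 and 642 at P7, 723, 810.3 and 566 at P14, and 247, 386 and 245 at P28. All 3 P28 libraries were below the other 9. It fell by 1.27 ± 0.25 between P14 and P28 (adjusted p = 0.00552) and fell by 1.81 ± 0.25 between P1 and P28 (adjusted p = 8.87e-05), and both calls held in every alternative fit.

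Nrp2 had 432, 467 and 277 normalized counts at P1, 287, 658 and 182 at P7, 198, 183 and 152 at P14, and 40.9, 49.5 and 14.9 at P28. The P28 libraries were again below all others. P7 replicate 2, which also had high endothelial and meningeal fibroblast markers, was the highest of the 12. Nrp2 fell by 2.46 ± 0.51 between P14 and P28 (adjusted p = 0.00717, and 0.0791 in a fit of these ages alone). Between P1 and P28 it fell by 3.57 ± 0.51 (adjusted p = 1.13e-04). Per kb, the neuropilins summed to 137 ± 26.0, 117 ± 39.0, 86.5 ± 14.3 and 32.9 ± 9.38 at P1, P7, P14 and P28, and Nrp1 was 3.20 ± 0.494 times Nrp2 at P1 and 12.2 ± 6.75 times at P28. Beside the falls from P14 to P28, summed mural markers were 6105 to 7227 at P14 and 2379 to 4096 at P28. Of these 6 markers, 3 were called lower. Summed endothelial markers were 8789 to 10333 and 6224 to 11160.1 at the same ages, with 1 of 10 called lower. From P1 to P28, 0 of 6 mural markers were called and 4 of 10 endothelial markers were called higher. Over that span 3 of 5 meningeal fibroblast markers were called lower. The part of these cell types in the falls was not tested.

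The summed level per kb of all semaphorins was 2538 ± 607, 2215 ± 174, 2532 ± 250.4 and 3431 ± 42.7 at P1, P7, P14 and P28. That of all plexins was 1496 ± 217, 1341 ± 111, 1180.5 ± 157 and 1435 ± 47.7. Within the ligands, class 4 went from 281 ± 6.37 at P1 to 595 ± 44.3 at P14, and class 5 from 653 ± 349 at P1 to 149.8 ± 49.1 at P28. The plexin A genes summed to 481 ± 82.9 at P1 and to 286 ± 17.3 at P28, and the P28 libraries were below those of P1. The ligand sum at P28 therefore came for the most part from Sema6d, and the receptor sum from the plexin B genes.

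Genes that act downstream of plexins were read from a fixed list of 32, all tested, against the background shares given above. From P1 to P7, 2 fell, against 4.24% of all genes. From P7 to P14, 5 rose and 5 fell, against 10.8% and 10.0%. From P14 to P28, 4 rose and 4 fell, against 5.68% and 8.76%. From P1 to P28, 10 rose and 8 fell, against 14.6% and 20.0%. The median change of the list from P1 to P28 was 0.0025, against -0.24 over all genes. Without P14 replicate 2 or P14 replicate 3, 2 and 1 of them fell from P14 to P28, and without P28 replicate 3, 1 rose from P1 to P7. The most abundant was Cfl1, the actin-severing protein cofilin, with means of 9980.0 ± 1027 (SD, n = 3) at P1 and 10716 ± 2186 at P28, which was not called.

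Mical2, an actin-oxidizing enzyme, had means of 908 ± 147, 358 ± 102, 2019 ± 90.5 and 1847 ± 438 at P1, P7, P14 and P28. It fell by 1.36 ± 0.23 between P1 and P7 (adjusted p = 0.00219, and 0.0529 without P1 replicate 2 and P7 replicate 2 together), the larger of the 2 falls among effectors, and rose by 2.53 ± 0.23 between P7 and P14 (adjusted p = 3.98e-06), their largest rise. Dpysl3, a collapsin response mediator protein, had means of 5338 ± 1067 at P7 and 659 ± 171 at P14 and fell by 3.03 ± 0.34 (adjusted p = 2.43e-05), and fell by 2.88 ± 0.34 between P1 and P28 (adjusted p = 2.17e-05). Its paralog Crmp1 fell by 2.15 ± 0.54 between P14 and P28 (adjusted p = 0.0177), a call lost without P14 replicate 2 or 3 (0.0558 and 0.0716), with edgeR (0.0565) and in a fit of these ages alone (0.0752). The GABAergic interneuron markers fell together with Dpysl3, as given above for Plxnc1, and their part was not tested. Mras, a Ras-family GTPase, rose by 0.97 ± 0.21 between P14 and P28 (adjusted p = 0.00862), from a mean of 3614 ± 849 to 7035 ± 1214.

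Rac1, a GTPase that binds plexin B, was the other most abundant effector and rose by 0.64 ± 0.16 between P1 and P28 (adjusted p = 0.00683), a call lost with library totals (0.20, adjusted p = 0.288). Its rise of 0.49 ± 0.16 between P7 and P14 (adjusted p = 0.0435) was lost without P1 replicate 3 (adjusted p = 0.055), without any single library of P7 or P14 (0.0771 to 0.133), without P1 replicate 2 and P7 replicate 2 together (0.069), without the filter on low values (0.0553) and with library totals (0.301). Rras rose by 2.42 ± 0.75 between P1 and P28 (adjusted p = 0.0223), from 39.4 ± 9.04 to 368 ± 447. That value was 1.39 without P28 replicate 2 (adjusted p = 0.076), and the call was also lost without P1 replicate 1 or 2 (0.0618 and 0.0652), without P1 replicate 2 and P7 replicate 2 together (0.0782), and in a fit of these ages alone (0.0822).

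Of 13 co-receptors and other semaphorin partners, 12 were tested, and Timd2 had no reads in any library. From P1 to P7, 1 rose and 1 fell, from P7 to P14 1 rose and 1 fell, from P14 to P28 2 rose and 2 fell, and from P1 to P28 2 rose and 5 fell. The shares of all genes were 3.47% higher and 4.24% lower, 10.8% and 10.0%, 5.68% and 8.76%, and 14.6% and 20.0% in these comparisons. Without 1 library the last count was as low as 2, without P1 replicate 1, 2 or 3 or P7 replicate 1, and 3 without P7 replicate 3 or P28 replicate 2. The rise from P7 to P14 was lost without P7 replicate 2 or P14 replicate 2, and without P28 replicate 1 or 3, 2 rose from P1 to P7. From P14 to P28, 1 rose without P14 replicate 3 or P28 replicate 1 or 2, and 1 fell without P14 replicate 1 or 3. Nrcam, an adhesion molecule that forms complexes with neuropilins, was the most abundant, with means of 4425 ± 745 at P1 and 12609 ± 2126 at P28 and a rise of 1.51 ± 0.18 (adjusted p = 2.17e-05). It rose by 1.00 ± 0.18 between P14 and P28 (adjusted p = 0.0032) and by 0.64 ± 0.18 between P7 and P14 (adjusted p = 0.0198), the latter lost without P7 replicate 2 (0.0861), without P14 replicate 2 (0.0887), without P1 replicate 2 and P7 replicate 2 together (0.0507) and with library totals (0.118). Its paralog Chl1 had means of 4535 ± 1109 at P1 and 4783 ± 632 at P28 and was not called.

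Cntn2, an adhesion molecule of axons and myelin, had the largest rise of the partners from P1 to P7, 3.76 ± 0.43 (adjusted p = 1.29e-04), and from P1 to P28, 2.62 ± 0.43 (adjusted p = 3.29e-04). From P7 to P14 Cntn2 was not called (-0.10 ± 0.43, adjusted p = 0.911). Of 10 oligodendrocyte markers, 9 were called higher from P1 to P7 and 10 from P7 to P14. Of 10 markers of granule neurons and their precursors, 5 were called higher and 1 lower in each of these steps. The part of RNA of either cell type in the values of Cntn2 was not tested. Erbb2, a receptor tyrosine kinase that associates with Plxnb1, fell by 2.56 ± 0.34 between P1 and P7 (adjusted p = 4.21e-04) and rose by 1.27 ± 0.34 between P14 and P28 (adjusted p = 0.0244). The rise was lost without P14 replicate 3 (0.87, adjusted p = 0.0978), without P28 replicate 1 or 2 (0.0615 and 0.0515), with library totals (0.0573) and in a fit of these ages alone (0.102). Tyrobp, a signaling adaptor of microglia, fell by 4.18 ± 1.10 between P14 and P28 (adjusted p = 0.022), was -2.54 without P28 replicate 3, and lost the call without P14 replicate 1 or 3 (0.0646 and 0.0925) and in a fit of these ages alone (0.0928). The 10 microglia markers summed to 2914 to 4129 at P14 and 1987 to 2389 at P28. Of these, 0 were called in that step, and their part in the fall of Tyrobp was not tested. Cd72, a lymphocyte receptor of Sema4d, had 59 reads at P7 and 4 at P14, a 12.5-fold difference with a counting interval of 4.64 to 47.5 (limma adjusted p = 0.0124, edgeR adjusted p = 0.0631). Mst1r, a receptor tyrosine kinase that partners with plexin B, had 92 reads at P1 and 0 in all P28 libraries, which made it at least 5.23-fold lower against 3 reads per library (adjusted p = 0.0098).

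Of 8 genes for VEGF ligands and receptors, which share neuropilins with class 3 semaphorins, 3 rose from P1 to P28, 1 fell from P1 to P7, 1 rose from P7 to P14, and 1 rose and 1 fell from P14 to P28. Of all genes, 14.6% rose from P1 to P28, 4.24% fell from P1 to P7, 10.8% rose from P7 to P14, and 5.68% rose and 8.76% fell from P14 to P28. Without P28 replicate 2, 2 fell from P1 to P28, and 1 did so without P14 replicate 1 or 2. From P1 to P7, 2 rose without P1 replicate 2 and 1 without P7 replicate 3. The fall from P1 to P7 was lost without P1 replicate 2 or P7 replicate 2. The rise from P7 to P14 was lost without P7 replicate 2, and 2 rose without P14 replicate 1 or 3. The fall from P14 to P28 was lost without P14 replicate 1, 2 or 3 or P28 replicate 3. Vegfb had means of 639 ± 216, 251 ± 45.6, 430.5 ± 131 and 1530.1 ± 209 at the 4 ages. It fell by 1.31 ± 0.29 between P1 and P7 (adjusted p = 0.0111), a call lost without P1 replicate 2 (0.0661), without P7 replicate 2 (0.0597) and without both (0.223), and rose by 1.87 ± 0.29 between P14 and P28 (adjusted p = 0.00127). Vegfc, the ligand that binds Nrp2, rose by 2.86 ± 0.47 between P1 and P28 (adjusted p = 3.23e-04), from 76.7 ± 24.8 to 548 ± 80.7, while Nrp2 fell.

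Vegfa, the ligand that binds Nrp1, rose by 1.24 ± 0.31 between P7 and P14 (adjusted p = 0.0103, and 0.0539 without P7 replicate 2). Flt1, an endothelial receptor of Vegfa, rose by 2.86 ± 0.67 between P1 and P28 (adjusted p = 0.00439), with means of 256 ± 277 and 1299.7 ± 388. Kdr, the main signaling receptor of Vegfa, fell by 2.04 ± 0.57 between P14 and P28 (adjusted p = 0.0293). That call was lost without P14 replicate 1, 2 or 3 (0.106, 0.072 and 0.0596) and without P28 replicate 2 or 3 (0.0618 and 0.0583). Summed endothelial markers were 1828 to 6909 at P1, 8789 to 10333 at P14 and 6224 to 11160.1 at P28. From P1 to P28, 4 of 10 were called higher, and from P14 to P28, 1 of 10 was called lower. Their part in the values of Flt1 and Kdr was not tested.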

How the data were processed

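RNA of GFP-sorted cerebellar cells was measured in 12 libraries, 3 at each of 4 ages, grouped by the age in the sample labels. Alignment by the authors was to mm10, using STAR (version 2.5.0a per the submitters' processing notes). They counted reads per gene on UCSC transcripts with GenomicAlignments and normalized with DESeq2, for which the processing notes give version 1.30.1. Use of strand and the handling of overlapping genes are not given in the sources used here. The deposited unit is a signal, namely counts that the authors had scaled by 1 size factor per library. Every value was a whole multiple of the smallest in its library (100% within 0.01 of a read), so reads were recovered for depth, for floors of 3 reads and for count tests. All 12 column names carry P28, and the ages rest on the labels. There were 0 columns without a sample.

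limma (version 3.58.1, R 4.3.3) was fitted to log2(value + 1) with 1 mean per age over 12 libraries and a variance trend, for genes that reached a value of 10 in 3 or more libraries, with Benjamini-Hochberg adjustment over the 15464 genes tested. The fold change understates changes of low genes. Lengths per kb are exon unions of GENCODE M21, matched for 31 members. They take in every annotated transcript, expressed or not, so ratios, ranks and shares between genes are approximate. Alternatives were edgeR (version 4.0.16) with TMM and DESeq2 (version 1.42.0) on the recovered reads, library totals, pseudocounts of 0.1 and 10, no filter, at least 10 in every library, only the ages compared, the replicate block, other thresholds (a log2 fold change over 0.75 with p or adjusted p under 0.05) and each library left out. Leaving out P1 replicate 2 and P7 replicate 2 together was chosen after seeing the data. The scripts were tested on simulated counts. Libraries of an age differed by more than sampling noise, with a chi-square of 9.92 to 76.3 per degree of freedom.

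The members and lists were chosen with earlier results of these data known. Members that were called, or were among the 8 most abundant per kb, are given in every library and the others by range. From the fixed lists of effectors, partners and VEGF genes, the 2 most abundant genes and the called genes with the largest rise and fall per comparison are named. Marker lists are given as sums, and Gabra6 and Atoh1 were named after their values were seen. Intervals and floors cover counting error only, at a confidence level of 95%. Fold changes, p-values and functional terms of the study were not used.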

Additional observations from a re-analysis of the deposited data

How the results depend on the processing

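Of the 46 calls of single members, 31 held in each of the 12 fits without 1 library, 34 held under every other setting that tested the gene, 28 held throughout, and 0 changed direction. Among the counts of members called, the fit of only the ages compared gave 7 higher from P1 to P7, 8 lower from P7 to P14, 3 lower from P14 to P28 and 3 higher from P1 to P28, with fewer libraries behind each spread. Scaling by library totals gave 1 higher from P14 to P28, and a minimum of 10 in every library gave 4 lower in that step, with fewer genes tested. Leaving out 1 library gave between 2 and 4 members lower from P1 to P7, between 1 and 3 higher and between 4 and 8 lower from P14 to P28. Leaving out P1 replicate 2 and P7 replicate 2 together gave 2 lower from P1 to P7. The causes of all these shifts were not tested.

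Scaling by library totals moved the median of all genes from -0.24 to -0.67 from P1 to P28, from -0.12 to -0.35 from P14 to P28, from -0.086 to -0.35 from P7 to P14 and from 0.037 to 0.10 from P1 to P7. Replicate numbers were not taken as pairs, because only 1 of 18 same-numbered pairs of libraries had a correlation of deviations over 0.1 (range -0.029 to 0.139). As a hint of weak pairing in the data, 15 of the 18 were positive, and 25 of 36 best matches shared a number, where 12 would if each of the 3 numbers were as likely. With the replicate block, members called higher and lower were 3 and 4, 5 and 5, 3 and 7, and 7 and 13 in the 4 comparisons, against 6 and 13 without the block for the last. Depth limits the lowest genes: Sema3f had 3 reads in all at P28.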
